A study of Mus musculus with 3 samples.

Results

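The RNA of 5 mouse genes was followed through the antibody gates of a single-cell experiment in which surface proteins and RNA were read from the same cells: Ptprc (CD45), Itgam (CD11b), Cd3e (CD3), Klrb1c (NK1.1) and Kit (CD117). The genes were chosen because the submitters gated cells on the proteins they encode, not for any measured value, and they are 5 of the 15904 genes present in all 3 expression tables. Cells of 8 samples were stained with 35 antibodies, each sample also with its own hashing antibody, and were loaded together as 1 library (10x 3' v3). The mice were females of 2 to 3 months on a C57Bl/6 background, and the labels name the genotypes Cx3cr1+/-, Cx3cr1-/-, CCR2+/- and CCR2-/-. The brain table held 4 hashed samples from mice without brain metastases, 2 of them CCR2+/- and 2 CCR2-/-, each brain sample being described as 1 hemisphere. The naive blood table held 1 sample called Het and 1 called Hom, also from mice without metastases, and the metastasis blood table held a Het and a Hom sample from mice with established brain metastases about 2 weeks after carotid injection of E0771 cells, a mouse breast cancer line. The blood labels do not say which gene Het and Hom refer to. Brains came from animals perfused with PBS and their immune cells were enriched on a percoll gradient, and blood was freed of red cells.

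CD45 is a transmembrane tyrosine phosphatase carried by all nucleated blood cells. Microglia, the resident macrophages of the brain parenchyma, are known to carry less of it on their surface than leukocytes from the blood, which is why brain cells are commonly split into CD45-low and CD45-high cells. CD11b is the alpha M integrin chain of myeloid cells and natural killer (NK) cells and pairs with the beta chain CD18. CD3 epsilon is an invariant chain of the T cell receptor complex. NK1.1 is a lectin-like receptor of NK cells and of some T cells in C57BL/6 mice. CD117, the receptor for stem cell factor, marks blood progenitors and mast cells.

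The DNA tags below identify these proteins in the sequencing reads. They are shown because each gate discussed here rests on the tag of its antibody.
CD45: tggctatggagcaga
CD11b: tgaaggctcatttgt
CD3: gtatgtccgctcgat
NK1.1: gtaacattactcgtc
CD117/c-kit: tgcatgtcatcggtg
Each tag is 15 bases long, and the 5 differ from each other at 8 to 13 positions and from any of the 43 antibody and hashing tags at no fewer than 7. In the RefSeq annotation of GRCm38.p6 the genes lie at chr1:138062859-138175756 (Ptprc), chr7:128062640-128118491 (Itgam), chr9:44998735-45009663 (Cd3e), chr6:128778485-128788641 (Klrb1c) and chr5:75574987-75656722 (Kit). Tag counts of single antibodies were not used here, so the protein enters only as the gate label of a cell, and the tag total over all antibodies is given beside results as a measure of how brightly a cell was stained.

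Of 16328 deposited cells, 11063 had a barcode in 1 table only and at least 50% of their hashing counts from that table's own samples. These kept cells numbered 675 to 1037 per brain sample and 1716 to 2074 per blood sample, with median UMI totals of 6189 to 7394 and 3928 to 4709 per cell and summed corrected counts of 4420428 to 9267629 per sample. The rule weighed on 1 gate more than on any other: of 2036 cells deposited as CD45High, 1502 had barcodes in several tables and 77 carried mostly other hashtags, which left 457 (22.5%), against 2893 of 3172 CD45Low cells (91.2%). Clusters made without the 5 genes were named from 26 marker lists and are written "-like", and between 7.0% and 48.2% of the cells of a sample lay in clusters that met no naming rule. Of the brain clusters, 3 with low median UMI totals (clusters 0, 2 and 5, with 649, 364 and 206 cells and medians of 1974, 683 and 1253) scored highest for microglia markers but stayed unnamed, and naive blood held 41 microglia-like cells, which do not go with a blood label.

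The deposited values are natural logs of counts that the submitters corrected to a common depth, and this bears on Ptprc and Itgam, in the brain most plainly. In 1681 of 3350 brain cells the corrected total exceeded the raw UMI total, and 516 brain cells held more genes with a corrected count than raw UMIs. All 388 brain cells under 1000 UMI and all 575 cells between 1000 and 2000 held a count of both Ptprc and Itgam, whereas 78.9% of the 1458 cells with 8000 UMI or more held Ptprc and 74.1% held Itgam. Cd3e, Klrb1c and Kit did not rise in shallow cells: at most 1.03% of the brain cells under 1000 UMI held any of them. In blood 2128 of 3694 naive and 2309 of 4019 metastasis cells were raised in the same way, and all cells under 2000 UMI held Ptprc. Itgam was held by 77.4% of metastasis but 5.85% of naive blood cells under 1000 UMI, and by 34.3% and 30.6% between 1000 and 2000. For this reason values are also given for cells whose corrected total did not exceed their raw total, called unraised cells below; this choice was made after seeing the data.

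**Figure D1:**
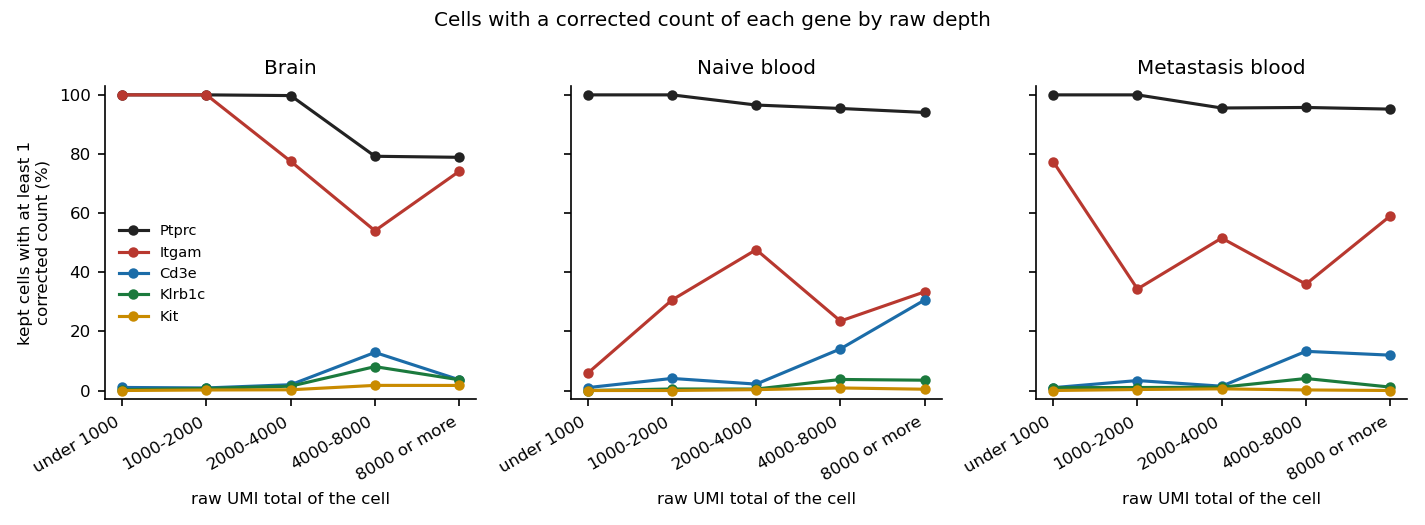
Share of kept cells with a corrected count of each of the 5 genes (vertical axis, percent) by raw UMI total of the cell (horizontal axis, bins), for each of the 3 tables. Every brain cell under 2000 UMI holds Ptprc and Itgam, while at most 1.03% of brain cells under 1000 UMI hold Cd3e, Klrb1c or Kit.

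Ptprc RNA was higher in CD45High than in CD45Low brain cells in each of the 4 samples. Levels are given as corrected counts per 10000 corrected counts, summed over the cells of a sample and gate. In the CD45High gate they were 8.96 and 7.46 in the CCR2+/- samples and 10.4 and 11.1 in the CCR2-/- samples. In the CD45Low gate they were 5.57, 5.43, 5.70 and 6.21 in the same order. The gates did not overlap, and the ratio within a sample ran from 1.37 to 1.83. The log2 difference was 0.72 ± 0.13 (SE, 4 samples with the sample as a block; 95% interval 0.44 to 0.99; limma, Benjamini-Hochberg adjusted p = 0.00068). Of all 13699 genes tested, 44.8% were called in the same contrast (2420 higher and 3711 lower in the CD45High gate; 1570 and 1098 after thinning each cell to 1000 counts, 5538 and 2326 with a pseudocount of 5), so a call as such is common here. In unraised cells the gap was wider: 6.52, 5.81, 9.74 and 9.82 against 2.64, 3.07, 3.08 and 3.17, a log2 difference of 1.38 ± 0.16 (limma adjusted p = 3.4e-05, with 42.3% of all genes called).

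Per cell, presence of Ptprc RNA was common on both sides of the CD45 gate. A count was held by 97.6% of the 457 CD45High cells (exact Clopper-Pearson 95% interval 95.7 to 98.8%) and by 86.0% of the 2893 CD45Low cells (84.7 to 87.2%); these and all later intervals cover counting error only. Thinned to 1000 counts per cell, the shares were 55.4% and 39.3%, and in unraised cells 96.9% and 75.9%. The CD45High cells had a median UMI total of 8795 and a median antibody tag total of 4073, against 6298 and 1091. Of the cells with Ptprc RNA, 15.2% lay in the CD45High gate, and presence of the RNA and the gate coincided in 25.4% of the cells.

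The cell classes on the sides of the CD45 gate differed in Ptprc level. The CD45High gate held 120 cells of cluster 6 (26.3%), whose leading genes were H2-Eb1, H2-Aa and Cd74, 84 T-like cells, 80 NK-like cells, 47 cells of cluster 12 (leading genes Trdc, Cxcr6 and Cd3g), 41 microglia-like cells, 35 neutrophil-like cells and 29 B-like cells. The CD45Low gate held 1175 of all 1216 microglia-like cells, and also 200 endothelial-like, 47 mural-like, 45 fibroblast-like and 33 choroid plexus-like cells. It also held nearly all cells of the shallow clusters 0, 2 and 5 (649, 364 and 206 cells in the table). Over all kept cells their mean Ptprc levels were 12.2, 9.17 and 11.9, against 12.3 in T-like cells, 5.29 in cluster 6 and 3.71 in microglia-like cells. The unraised levels below do not cover these shallow clusters. Among unraised cells, the Ptprc level in NK-like brain cells was 14.1 ± 3.5 (SD over the 3 samples with at least 10 such cells), in T-like cells 11.5 ± 0.8 (3 samples), in cluster 6 it was 4.74 ± 0.89 (4 samples) and in microglia-like cells 3.67 ± 0.05 (4 samples, from 3.60 to 3.73). Of these classes the microglia-like cells varied least across the samples and stood below every sample's NK-like and T-like value. They also had the most unraised cells, 1106 against 134 in cluster 6, 46 T-like and 43 NK-like cells. Endothelial-like cells had a level of 0.133 ± 0.161, mural-like cells 0.0376 and fibroblast-like cells 0. Over all kept cells, a Ptprc count was found in 15.5% of the 200 endothelial-like cells (median UMI 9087), 9.09% of the choroid plexus-like, 6.67% of the fibroblast-like and 2.13% of the mural-like cells. These shares give the background in cells that should lack this RNA, with cells raised by the correction included. The endothelial-like cells held 41 counts, of which the 128 unraised cells held 12. Among the CD45Low microglia-like cells (median UMI 9981) the share was 92.4%.

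Within a class the Ptprc difference between the gate values was smaller and passed no test. In microglia-like cells the CD45High minus CD45Low log2 difference was 0.26 ± 0.21 (limma adjusted p = 0.72, 95% interval -0.15 to 0.68), and 0.432% of all genes were called there; the fit used the 2 samples with at least 10 cells of each gate value. In cluster 6, the class most evenly divided by the gate with 120 cells high and 58 low, it was 0.50 ± 0.26 (adjusted p = 0.34, -0.04 to 1.03), with 2.4% of genes called. The 41 CD45High microglia-like cells had a median UMI total of 19620 and tag total of 3467, against 9981 and 1443 in the CD45Low ones. The part of that depth in their gate was not tested.

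Blood was not gated on CD45, but its classes spanned a range of Ptprc levels. Among unraised cells, NK-like cells had 18.1 in naive and 18.7 in metastasis blood (means of the Het and Hom samples), neutrophil-like cells 18.0 and 15.6, and Ly6c-low monocyte-like cells 12.7 and 13.2. T-like cells had 8.05 and 7.27, Ly6c-high monocyte-like cells 7.92 and 8.03, and B-like cells 6.65 and 6.28. Every one of these classes lay above the brain's microglia-like cells in each sample, but the order among them depends on the cells used. The unraised neutrophil-like values rest on 93 of 1163 naive and 210 of 1606 metastasis cells. Over all kept cells the mean neutrophil-like levels were 26.4 and 23.4, above the NK-like means of 19.0 and 21.4. Which of the NK-like and neutrophil-like ranges, and of the T-like and Ly6c-high monocyte-like ranges, overlapped also changed: in unraised cells both pairs overlapped in naive blood only, and in all kept cells in metastasis blood only. The tables were normalised separately, so no test was made between tissues.

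The other lineage RNAs moved with the CD45 gate. Cd3e was at 2.06, 0.455, 3.18 and 1.69 in CD45High cells and at 0.00414, 0.0122, 0.0236 and 0.0901 in CD45Low cells (log2 difference 6.13 ± 0.53, limma adjusted p = 3.3e-06). Klrb1c was at 1.73, 0.520, 1.38 and 1.14 against 0.00207, 0.0171, 0.0105 and 0.0701 (6.06 ± 0.59, adjusted p = 8.6e-06). For both genes every CD45High value lay above every CD45Low value, and the second CCR2+/- sample was the lowest of the CD45High values. Kit, at 0.0656 to 0.289 against 0.00621 to 0.0122, was also higher (3.67 ± 0.45, adjusted p = 4.4e-05), and Itgam went the other way, from 1.53, 2.44, 1.12 and 2.99 in CD45High to 3.48, 4.22, 3.95 and 4.44 in CD45Low cells (-1.08 ± 0.18, adjusted p = 0.00040).

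**Figure D2:**
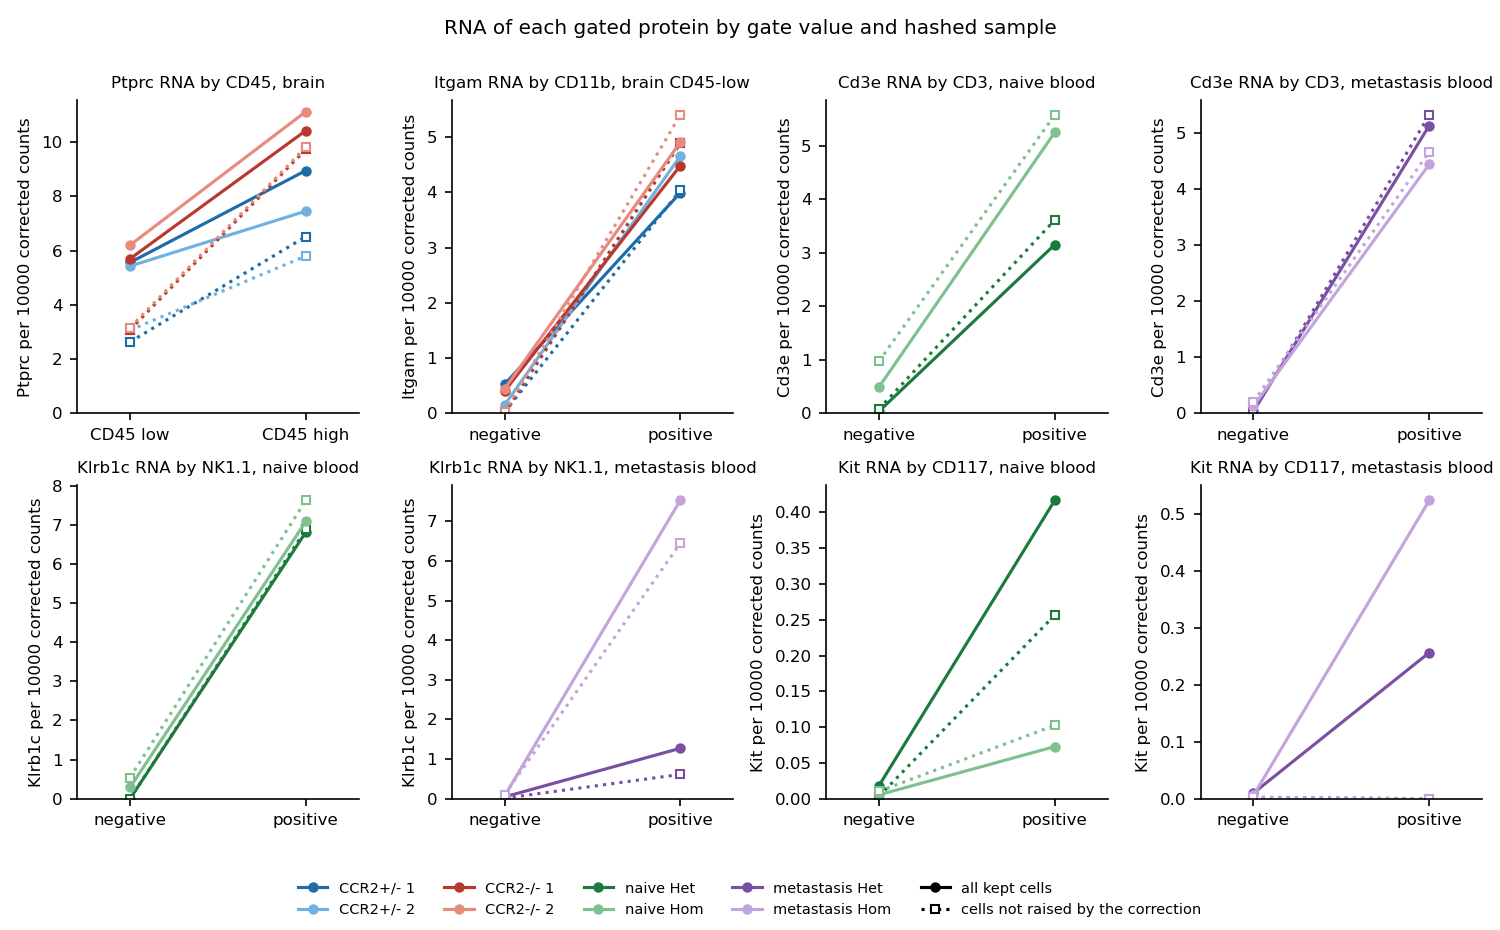
Level of each gated gene (corrected counts per 10000, linear axis from 0) in gate-negative and gate-positive cells, with a line for each hashed sample; solid lines are all kept cells and dotted lines unraised cells. Over all kept cells the gate-positive value lies above the gate-negative value of the same sample in every panel, and in unraised cells of metastasis blood Kit is at 0 in the CD117-positive gate.

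Itgam RNA followed the CD11b gate closely. The submitters drew this gate within the CD45Low brain cells. The Itgam level in CD11b-positive cells was 4.0 and 4.66 in the CCR2+/- pair and 4.49 and 4.91 in the CCR2-/- pair, and in CD11b-negative cells 0.526, 0.150, 0.402 and 0.443. No value overlapped, and the ratio within a sample ran from 7.60 to 31.2. The log2 difference was 3.62 ± 0.24 (limma adjusted p = 1.9e-07), where 55.1% of the 13323 genes tested were called (2577 higher and 4767 lower). An Itgam count was held by 90.9% of 2570 positive cells (89.7 to 92.0%) and 23.2% of 323 negative cells (18.7 to 28.2%), or 35.0% and 5.26% after thinning.

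Most CD11b-negative cells with an Itgam count were cells raised by the correction. Among unraised cells only 2 of 167 negative cells held a count (1.20%, 0.145 to 4.26%), against 1070 of 1212 positive cells (88.3%), and the levels were 4.04, 4.90, 4.89 and 5.40 against 0.0233, 0, 0 and 0.0260 (log2 difference 6.80 ± 0.20, limma adjusted p = 1.7e-09, with 53.3% of all genes called). In the samples where the negative gate was at 0, the positive gate was at least 40.0 and 47.1 times higher, against a floor of 3 counts per sample. Of the 75 CD11b-negative cells with an Itgam count, 36 lay in cluster 11 (median UMI 2201, leading genes Ptgds, Dcn and Mgp) and 24 in cluster 2 (median UMI 683). Ptprc was also higher in the CD11b-positive gate, at 6.35, 5.95, 6.33 and 6.69 against 1.12, 0.673, 1.55 and 2.06 (2.32 ± 0.19, limma adjusted p = 9.8e-07). Cd3e was at 0.00487, 0.0136, 0.0181 and 0.0168 in CD11b-positive and at 0, 0, 0.0603 and 0.712 in CD11b-negative cells. It was thus lower in the positive gate in the CCR2-/- samples only, mostly in the second. The fitted difference was -2.19 ± 0.70 (limma adjusted p = 0.019), a call lost with a scaled pseudocount (-0.87, adjusted p = 0.53). Where the negative gate held no count, in the CCR2+/- samples, the fitted value is set by the pseudocount. RNA and gate coincided in 89.3% of the CD45Low cells, and 96.9% of the cells with Itgam RNA lay in the positive gate.

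All 1175 CD45Low microglia-like cells were CD11b-positive, and 97.3% of them held Itgam. Other classes entered the gate without the RNA. Of the 200 endothelial-like cells, 69 were called CD11b-positive, and 5 of those 69 held Itgam (7.25%) against 4 of the 131 CD11b-negative ones (3.05%). The positive endothelial-like cells had a median antibody tag total of 5858 and a median UMI total of 10323, the negative ones 3626 and 7873. The positive gate also held 26 of 33 choroid plexus-like cells (1 with Itgam), 16 of 47 mural-like cells (none; a count of 0 allows up to 18.8%) and 9 of 45 fibroblast-like cells (none; up to 33.3%). Over the whole gate, the 234 positive cells with no Itgam count had median tag totals of 2318, 1572, 1343 and 1552 in the 4 samples, each above the 1065, 1201, 1078 and 1032 of the positive cells with a count. The cells without a count were also deeper, with a median UMI total of 8564 against 3854. Of the cells with a count, 1178 lay in unnamed clusters, whose 1257 gate cells had medians of 1579 UMI and 769 tags. The tag comparison therefore also compares deep with shallow cells. Whether the tag total or depth bears on these gate calls was not tested. Within the endothelial-like class 0.604% of all genes were called between the gate values. Ptprc there differed by 0.20 ± 0.44 (limma adjusted p = 0.97), and Itgam had too few counts to be tested.

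**Figure D3:**
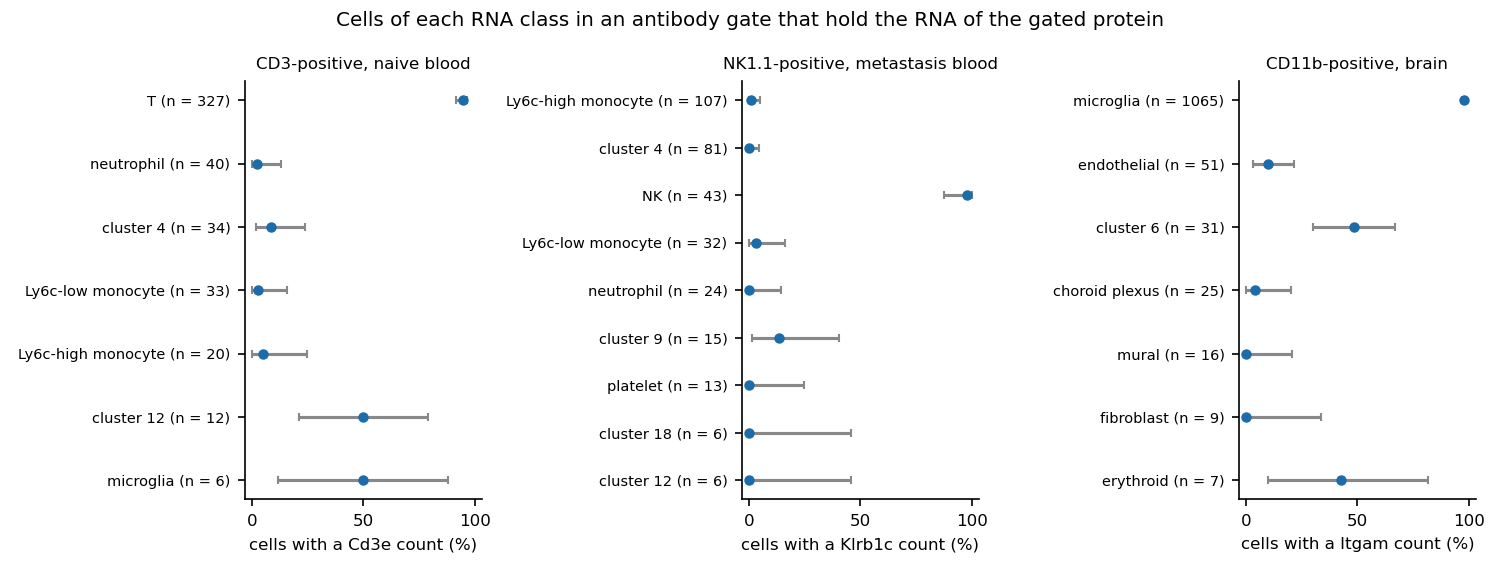
Share of cells with a count of the gated RNA (percent) within the gate-positive cells, by cell class with at least 5 cells, for CD3+ naive blood (kept cells), NK1.1+ metastasis blood (kept cells) and CD11b+ brain (unraised cells); bars are exact 95% intervals. In each gate 1 named class stands above 90%, and several classes in the same gate lie near 0.

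Across tissues the Itgam level was ordered by class. Among unraised cells, brain microglia-like cells had 5.49 ± 0.40 (SD, 4 samples) and the 13 neutrophil-like cells of 1 brain sample 5.58. In blood the means of the Het and Hom samples were 3.20 and 3.68 for neutrophil-like cells, 2.58 and 3.11 for Ly6c-high monocyte-like cells and 2.61 and 3.41 for Ly6c-low monocyte-like cells, naive blood first and metastasis blood second. The ranges of the Ly6c-high and Ly6c-low classes overlapped in naive blood (2.53 to 2.64 and 2.33 to 2.88) but not in metastasis blood (3.11 to 3.11 and 3.15 to 3.68). NK-like cells had 2.03 in naive and 1.23 in metastasis blood and 0.759 in the brain, and B-like and T-like blood cells lay between 0.0630 and 0.138. Levels in different tables were normalised separately and are set beside each other without a test. The highest value, 15.4, belonged to 33 cells of the metastasis cluster 15 of 1 sample, with leading genes Retnla, Prg4 and Alox15, and the naive cluster 12, led by Prg4, Fn1 and Alox15, had 6.13 ± 1.79 (2 samples).

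In naive blood a joint CD11b and Ly6C gate was drawn within the NK1.1-negative cells. Itgam was at 3.31 against 0.154 in the Het sample and 3.40 against 0.241 in the Hom sample, and 63.1% of 1440 positive cells held a count (60.6 to 65.6%) against 5.08% of 197 negative cells (2.46 to 9.14%). The 1092 neutrophil-like cells in it were all positive, and 63.6% held Itgam at a median of 2928 UMI. Among unraised cells 69.6% of 358 positive and 3.03% of 66 negative cells held Itgam. A combined gate cannot say which of the 2 antibodies placed a cell there.

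Cd3e RNA was higher in the CD3-positive gate of both blood tables. The gate was drawn on cells outside the B220-positive gate (B220 is the B cell form of CD45). In naive blood the level was 3.15 in the gate against 0.0389 outside it in the Het sample, and 5.25 against 0.492 in the Hom sample. In metastasis blood it was 5.13 against 0.0363 in Het and 4.44 against 0.128 in Hom. The ratios were 81.1 and 10.7 in naive blood and 141 and 34.8 in metastasis blood, so gate-positive values lay above gate-negative values in every sample. The fitted log2 differences were 4.83 ± 0.48 (2 samples, limma adjusted p = 6.4e-09) and 6.09 ± 0.31 (2 samples, limma adjusted p = 2.5e-11), with 22.3% of 10778 and 59.2% of 10776 genes called. Without the sample as a block the naive difference of 4.83 had an adjusted p of 0.15, and limma called 0 genes (2937 had an unadjusted p under 0.05). Each blood contrast rests on 2 samples that differ in genotype, so their spread and a genotype effect cannot be told apart. The log2 ratios of Het and Hom were 6.34 and 3.42 in naive and 7.14 and 5.12 in metastasis blood. The SEs rest mostly on a variance shared over all genes and are smaller than these distances.

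The naive Het sample stood apart in its CD3 gate. Only 48.5% of its 229 CD3-positive cells held Cd3e (41.8 to 55.1%), against 84.6% of 254 in the Hom sample (79.6 to 88.8%) and 80.7% of 176 and 75.7% of 136 in the metastasis samples. The shares among CD3-negative cells were 0.971%, 6.80%, 0.829% and 2.00% in the same order. In the naive Het gate 90 cells (39.3%) lay in classes outside the T lineage, neutrophil-like and monocyte-like cells among them, and 1 of the 90 held Cd3e. In the Hom gate there were 9 such cells (3.54%), 4 with Cd3e, and in the metastasis gates 13 of 176 (7.39%), 5 with Cd3e, in Het and 11 of 136 (8.09%), none with Cd3e, in Hom. The 118 naive Het gate cells without Cd3e had a median antibody tag total of 7143, against 2373 for the 111 with it, at nearly the same median UMI (7067 and 7053). The CD3-negative cells of this sample had a median tag total of 5912 and a median UMI total of 3158. Of those 118, 18.6% held any of Cd3d, Cd3g, Trac, Trbc1 or Trbc2, the genes of other chains of the receptor complex, against 53.8% of the 39 such Hom cells, whose median tag total was 1823 and median UMI 1344. The part of tag total or of staining in the naive Het gate was not tested.

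T-like cells nearly all held Cd3e RNA, on either side of the gate. The marker list that named them holds Cd3d, Cd3g, Trac, Trbc1 and Trbc2, so a high share is partly given by the naming. The 327 T-like cells in the naive CD3 gate held it in 94.5% of cells, at a level of 5.97, and the 242 T-like cells in the metastasis gate in 95.5%, at 5.73. Outside the gate it was held by 96.0% of 50 naive CD3-negative T-like cells (level 6.50) and 90.3% of 31 metastasis ones (level 5.37). Of the 50 naive cells 48 came from the Hom sample, where the gate held 216 T-like cells, and 2 from the Het sample, where it held 111. A further 44 naive T-like cells lay in the B220-positive gate. Neutrophil-like cells in the naive gate held Cd3e in 1 of 40 cells, Ly6c-low monocyte-like cells in 1 of 33 and Ly6c-high monocyte-like cells in 1 of 20. By sample, the monocyte-like cells of both kinds held it in 0 of 50 Het and 2 of 3 Hom cells. NK-like cells, which should lack the RNA, held it in 0 of 65 CD3-negative naive cells and 0 of 53 metastasis cells, which allows shares of up to 4.62% and 5.66%. Their median UMI totals were 6224 and 4854, against 7493 and 7646 for the T-like cells in the gates.

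Clusters of shallow cells divided by the CD3 gate gave no call of Cd3e, but the authors' clusters with the largest number of these cells did. Cluster 4 of naive blood (median UMI 994) held Cd3e in 8.82% of 34 CD3-positive and 5.19% of 77 CD3-negative cells, a log2 difference of 0.54 ± 1.52 (limma adjusted p = 0.97, 1.21% of genes called). Cluster 9 of metastasis blood (median UMI 966, leading genes Txk, Il7r and Ms4a4b) held it in 22.2% of 36 and 1.27% of 79 cells, a difference of 3.32 ± 1.42 (limma adjusted p = 0.30, 2.18% of genes called). Within the authors' clusters the differences were 3.16 (limma adjusted p = 0.010) and 4.15 (adjusted p = 0.022).

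Among unraised cells the Cd3e contrasts kept their direction at 3.90 ± 0.57 in naive blood (limma adjusted p = 0.012) and 5.61 ± 0.40 in metastasis blood (adjusted p = 2.0e-06), with 79.1% and 88.7% of gate-positive cells holding the RNA. The level in T-like cells was 6.57 ± 1.54 in the brain (SD, 3 samples), 5.81 ± 0.02 in naive blood and 5.56 ± 0.45 in metastasis blood (2 samples each), with overlapping ranges. Itgam was lower in CD3-positive cells of naive (-2.16 ± 0.45, limma adjusted p = 0.00071) and metastasis blood (-2.47 ± 0.18, adjusted p = 2.3e-09). Ptprc was lower in metastasis blood (-0.95 ± 0.23, adjusted p = 0.0020), and its naive difference was -0.76 ± 0.52 (adjusted p = 0.29).

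**Figure D4:**
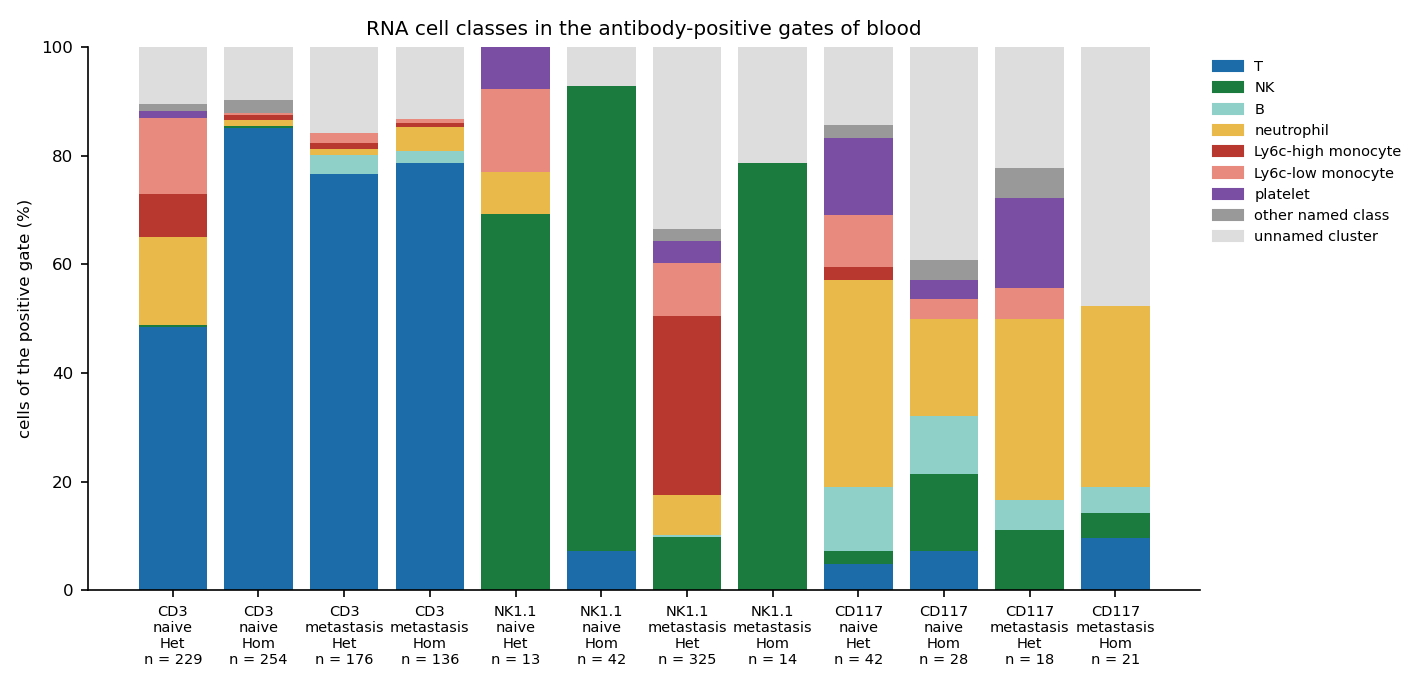
Make-up of the CD3-, NK1.1- and CD117-positive gates of blood by cell class (percent of the kept cells in the gate), with a bar for each hashed sample. Among the CD3 gates the naive Het bar has the largest part outside the T lineage (39.3%), among the NK1.1 gates the metastasis Het bar the largest part outside the NK lineage (56.3%), and no single class fills a CD117 gate.

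Klrb1c RNA was higher inside than outside the NK1.1 gate in each of the 4 blood samples, but in 1 of them most gated cells lacked it. The gate was drawn on CD3-negative cells. In naive blood the level was 6.81 in the 13 gate-positive Het cells, with 0 counts in 914 gate-negative cells, and 7.09 in 42 Hom cells against 0.288 in 723. In metastasis blood it was 7.53 in 14 Hom cells against 0.0677 in 1435, but 1.27 in 325 Het cells against 0.0459 in 881. The metastasis Het gate held the most cells and the lowest level of the 4. With a floor of 3 counts the naive Het ratio was at least 920, and the other ratios were 24.6, 111 and 27.7. These contrasts were added after seeing the data with a minimum of 10 cells, and their log2 differences were 8.04 ± 0.58 in naive blood (limma adjusted p = 1.9e-40) and 5.76 ± 0.60 in metastasis blood (adjusted p = 5.9e-14), where 28.4% and 13.3% of genes were called. The naive difference depends on the pseudocount, since 1 gate-negative group held no count. The log2 ratios of the naive samples were 4.62 in Hom and, with the floor of 3 counts, at least 9.85 in Het. The SE of 0.58 rests mostly on a variance shared over all genes and does not measure that distance. With a pseudocount scaled to the total of each sum the naive and metastasis differences were 7.47 (limma adjusted p = 0.00066) and 5.71 (adjusted p = 0.038), with 21.0% and 0.174% of genes called. With the mean of the log values the metastasis difference was 1.08 and its call was lost (limma adjusted p = 0.057). The split of all calls in naive blood moved with that choice from 2310 higher and 530 lower to 870 and 1233.

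The shares told the same samples apart. Klrb1c was held by 69.2% of the naive Het gate (9 of 13 cells, 38.6 to 90.9%), 85.7% of the naive Hom gate (71.5 to 94.6%), 85.7% of the metastasis Hom gate (57.2 to 98.2%) and 10.5% of the metastasis Het gate (7.35 to 14.3%). Over both metastasis gates it was 13.6%, which rose to 31.4% without cells of over 2.5 times their sample's median UMI total. Among gate-negative cells the shares were 0% (a count of 0 allows up to 0.328%), 2.77%, 0.906% and 0.341%. RNA and gate coincided in 99.6%, 96.6% and 99.0% of the naive Het, naive Hom and metastasis Hom cells and in 75.6% of the metastasis Het cells.

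In the metastasis Het gate 183 of 325 cells (56.3%) lay in named classes outside the NK lineage, 139 of them monocyte-like, and 2 of the 183 held Klrb1c. Another 109 lay in unnamed clusters, 1 of them with Klrb1c, while the metastasis Hom gate held no cell of another named class. Over both samples the gate held 107 Ly6c-high monocyte-like cells (0.935% with Klrb1c), 81 cells of cluster 4 (none; up to 3.70%), 32 Ly6c-low monocyte-like cells (3.13%), 24 neutrophil-like cells (none) and 43 NK-like cells (97.7%, level 11.8). B-like cells, the background class for this RNA, held it in 1 of 18 gate-negative metastasis cells, with a median of 2135 UMI. The 291 metastasis Het gate cells without Klrb1c had a median UMI total of 12289 and a median tag total of 5809, and 7.56% of them held any of the NK genes Ncr1, Klrk1, Klrd1, Klre1 or Gzma. The 34 with Klrb1c had medians of 4622 and 1865, and 91.2% held such a gene. The NK1.1-negative cells of the same sample had a median UMI total of 3196 and a median tag total of 6614. Ly6c-high monocyte-like cells inside the gate had a median tag total of 5996 and those outside it 4736. The part of the tag total in this gate was not tested.

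Among NK-like cells Klrb1c was nearly uniform, whichever side of the gate they lay on. Their class was named from NK receptor genes such as Ncr1 and Klre1, so a high share is partly given by the naming. All 45 naive NK-like cells in the gate held it (level 8.40), as did 19 of the 20 NK-like cells called negative (level 9.24). In metastasis blood it was 97.7% of 43 gate-positive and 90.0% of 10 gate-negative NK-like cells, at levels of 11.8 and 11.0. In unraised NK-like cells the level was 5.87 ± 1.25 in the brain (SD, 3 samples), 8.07 ± 0.29 in naive and 8.91 ± 0.10 in metastasis blood (2 samples each). The brain values ran from 4.58 to 7.06 and did not reach the lowest blood value of 7.87. Over all kept cells they did, with 4 brain values of 4.34 to 8.34 against a lowest blood value of 8.25. The means over all kept NK-like cells were 6.22 in the brain, 8.72 in naive and 10.8 in metastasis blood, each above the mean of unraised cells. The tables were normalised separately and no test was made. Unraised T-like cells were at 0.523, 0.0605 and 0.183 in the same order, and unraised B-like blood cells at 0 in 605 naive and 300 metastasis cells.

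The brain table has no NK1.1 gate of its own but divides a set of lymphoid cells into NK and T cells. Neither Cd3e nor Klrb1c RNA separated these values cleanly. Cd3e was held by 84 of 168 cells gated as T (level 3.82) and 17 of 34 cells gated as NK (level 3.46), the same share, and Klrb1c by 23.2% (level 1.58) and 55.9% (level 2.71). By sample, the T-gate Cd3e levels were 3.88, 1.86, 4.97 and 2.84 and the NK-gate levels 3.73, 0, 5.81 and 3.03, which overlapped. The T gate held 64 T-like cells (95.3% with Cd3e), but also 34 NK-like cells, none with Cd3e and 94.1% with Klrb1c, 27 cells each of clusters 12 and 6 (70.4% and 14.8% with Cd3e) and 10 neutrophil-like cells without it. The NK gate held 17 T-like cells, 94.1% of them with Cd3e and 35.3% with Klrb1c, and 14 NK-like cells, 78.6% with Klrb1c. Of all 87 NK-like brain cells 34 were gated as T cells, 29 as B220-negative with no lymphoid value, 14 as NK cells, 5 as CD11b-positive and 2 as CD11b-negative CD45Low cells, and 3 as B220-positive.

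**Figure D5:**
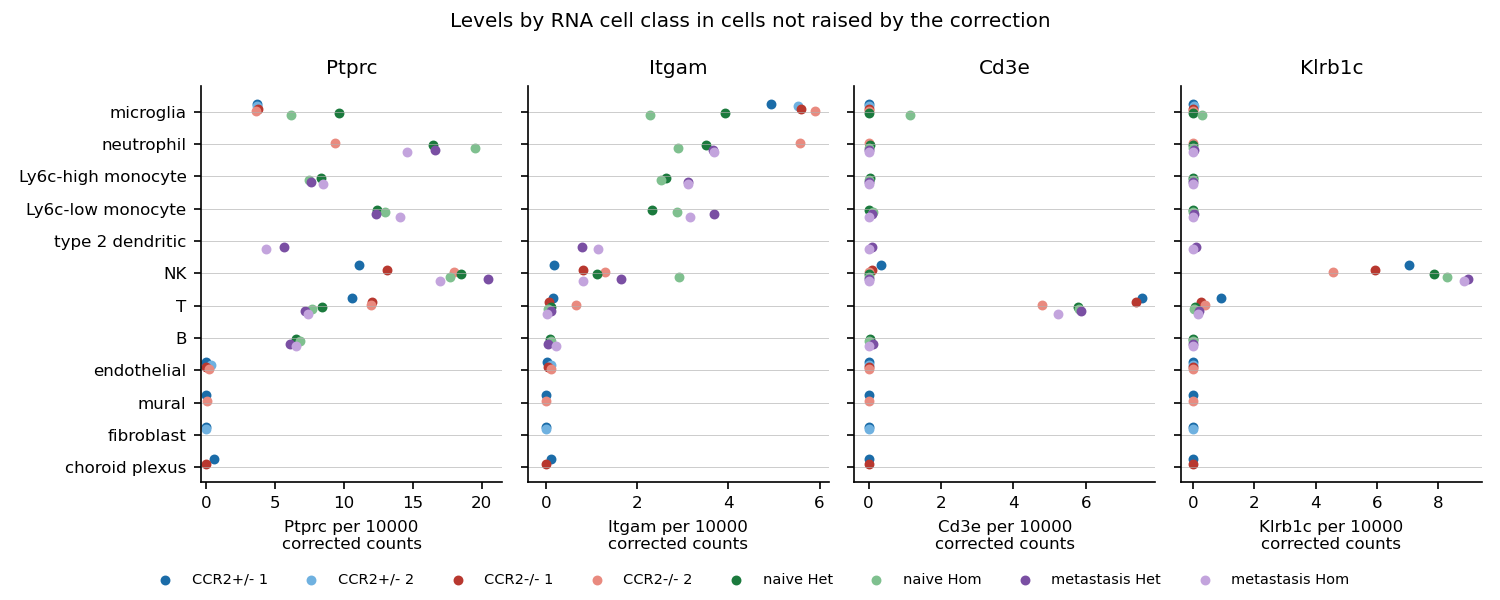
Level of Ptprc, Itgam, Cd3e and Klrb1c (corrected counts per 10000) in unraised cells of each named class with at least 10 such cells in a sample, with 1 point per hashed sample, by table. The highest Cd3e levels are those of T-like and the highest Klrb1c levels those of NK-like cells, while Ptprc and Itgam are spread over many classes.

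Kit RNA was rare in the CD117 gate. In naive blood 4 of 42 gate-positive Het cells (9.52%, 2.66 to 22.6%) and 1 of 28 Hom cells (3.57%, 0.0904 to 18.4%) held a count, against 0.478% of 1674 and 0.256% of 1950 gate-negative cells. In metastasis blood it was 1 of 18 Het and 2 of 21 Hom cells, against 0.243% of 2056 and 0.156% of 1924. The levels were 0.417, 0.0729, 0.257 and 0.524 inside the gates and 0.0183, 0.00548, 0.00998 and 0.00584 outside, higher inside in each sample, but each sample rests on 6 to 22 Kit counts in all. The log2 differences of 4.53 ± 0.50 (naive, limma adjusted p = 0.0060, 12.7% of genes called) and 5.80 ± 0.46 (metastasis, adjusted p = 5.0e-06, 28.6% called) did not hold with a pseudocount scaled to the total, where they were 3.81 (adjusted p = 0.37, 12.3% called) and 5.21 (adjusted p = 0.23, 22.9% called). A fixed pseudocount lifts a rare gene in a small gate. The split of all calls turned with it, from 1453 higher and 45 lower to 36 and 1419 in naive blood and from 3204 and 88 to 47 and 2589 in metastasis blood. In unraised cells of metastasis blood 0 of 17 gate-positive cells held Kit, which allows a share of up to 17.6% (3 counts of the total, as for every count of 0 here; the exact interval ends at 19.5%).

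Few cells of the CD117 gates held progenitor or mast cell genes: Gata2, Cpa3 or Cd34 was found in 1 of 65 naive and 1 of 36 metastasis gate cells without Kit and in none of the 5 and 3 with Kit. The naive gate of 70 cells held 21 neutrophil-like cells (3 with Kit), 9 cells of cluster 12, 8 B-like cells, 8 cells of cluster 4 (1 with Kit), 7 platelet-like cells, 5 NK-like cells (1 with Kit) and 5 Ly6c-low monocyte-like cells. The 39 cells of the metastasis gate included 13 neutrophil-like cells (2 with Kit) and 6 cells of cluster 15. Gate-positive cells without Kit had a median tag total of 6131 in naive and 6950 in metastasis blood, against 4371 and 4936 for all gate-negative cells. The 5 cells of naive blood that clustered as basophil- or mast-like were all CD117-negative and held no Kit. They all held Gata2, Cpa3 or Cd34, but Gata2 and Cpa3 are on the marker list that named them. Of the cells with Kit RNA, 5 of 18 lay in the gate in naive and 3 of 11 in metastasis blood. B-like cells held Kit in 1 of 1186 and 0 of 951 gate-negative cells (median UMI 4775 and 3973). The brain table has no CD117 gate. Of its 36 cells with Kit, 14 were B220-negative CD45High cells, 4 were gated as T and 3 as NK cells. Among the CD45Low cells, the only ones gated on CD11b, 9 were CD11b-negative and 6 CD11b-positive. By class, cluster 12 held 34 Kit counts at a level of 1.18 ± 1.07 (SD, 4 samples). The next highest level among brain classes with at least 10 cells in a sample was 0.167, in neutrophil-like cells of 1 sample. Klrb1c was the other member called in the CD117 contrasts (1.66 ± 0.47, limma adjusted p = 0.0497 in naive and 2.55 ± 0.49, adjusted p = 0.00092 in metastasis blood), and with the scaled pseudocount its adjusted p-values were 0.28 and 0.047.

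Partner genes of each protein moved unequally with the gates. The lists hold genes whose products bind the protein, signal with it or share its complex, and a share of calls near the background of the contrast says nothing of the list. Of 11 genes of the CD3 complex and its signalling, 11 were higher in the CD3-positive gate of both tables, with median log2 differences of 3.89 and 4.66 against 0.44 and 0.48 over all genes, of which 22.3% and 59.2% were called in either direction. The naive calls are lost without the sample as a block, where no gene was called (2937 had an unadjusted p under 0.05 in limma). Trac, the constant part of the receptor alpha chain, was at 4.94 ± 0.48 and 5.91 ± 0.22 (limma adjusted p = 5.9e-09 and 1.7e-12), Trbc2 of the beta chain at 4.68 and 5.63, and Cd3g at 4.71 and 5.35. Of 10 tested genes of the NK1.1 list 7 and 8 were higher in the NK1.1 gate, with medians of 5.64 and 4.75 against 1.11 and 0.95 over all genes, of which 28.4% and 13.3% were called in either direction. Ncr1, an activating NK receptor, was at 7.32 ± 0.50 and 5.88 ± 0.60 (limma adjusted p = 2.8e-45 and 2.2e-14), whereas Clec2d, which encodes a ligand of the receptor family, was at 0.01 (adjusted p = 0.99) and 0.41 (adjusted p = 0.59).

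For CD11b, 4 of 7 tested partner genes were higher and none lower in the positive gate, with a median of 0.79 against -0.32 over all genes. That share of calls is near the 55.1% of all genes called in either direction in the contrast. Itgb2, the CD18 chain that pairs with CD11b, was at 2.22 ± 0.22 (limma adjusted p = 5.3e-06), Fermt3, an integrin activator, at 2.65 ± 0.22, and Icam1, a ligand, at 3.19 ± 0.12. Itgal, the alpha chain of another CD18 integrin, was at 0.06 ± 0.39 (limma adjusted p = 0.92). Of the 10 CD45 partners 7 were higher and 2 lower in the CD45High gate, with a median of 1.59 against -0.18, where 44.8% of all genes were called in either direction and the split over all genes turned with the pseudocount as given above. Ptprcap, the CD45-associated protein of lymphocytes, was at 4.12 ± 0.27 and Lck, a kinase that CD45 activates in T cells, at 4.52 ± 0.36 (limma adjusted p = 4.4e-07 and 1.7e-06). Lyn and Src, kinases of the same family, were lower at -0.99 ± 0.16 and -1.34 ± 0.38 (adjusted p = 0.00034 and 0.014). Of the CD117 list 1 of 11 tested genes in naive and 2 of 9 in metastasis blood were called higher, with medians of 0.60 and 0.44 against 0.38 and 0.63 over all genes. These shares lie below the 12.7% and 28.6% of all genes called. The naive call, Fcer1a, had 0 counts in the gate and owes its fitted value to the pseudocount.

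The genes whose level over the 53 table-and-cluster pairs with at least 20 cells was most like that of each member were ranked among 10736 genes by Pearson correlation, as a description. For Klrb1c they were Ncr1 (0.977), Klra9 (0.977) and Klre1 (0.972). For Cd3e they were Bcl11b (0.972), Cd3g (0.951) and Cd3d (0.948), and for Itgam Fcgr3 (0.921), Tyrobp (0.884) and Fcer1g (0.873). Ptprc was most like Arhgap45 (0.919), Arhgap30 (0.918) and Gpsm3 (0.917), and Kit, with the lowest values, like Il1rl1 (0.754), Nr4a3 (0.727) and Cd163l1 (0.684). Clusters of a table share its library, depth correction and samples.

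Between CCR2-/- and CCR2+/- brains no member was called at an adjusted p under 0.05 in any of 10 gate values and classes tested with limma. The background was low: 0.0217% of genes were called in CD45High cells, 0.015% in CD45Low, 0.198% in CD11b-positive and 0.126% in CD11b-negative cells, 0.71% in microglia-like and 0.0641% in endothelial-like cells, and 0.0479%, 0.0%, 0.0% and 0.0448% in clusters 0, 2, 5 and 6. In clusters 2 and 5, with no call, 244 and 218 genes had an unadjusted p under 0.05. The CCR2-/- minus CCR2+/- log2 difference of Ptprc was 0.40 ± 0.25 in CD45High cells (adjusted p = 0.999, 95% interval -0.19 to 0.98), 0.03 ± 0.10 in microglia-like cells (adjusted p = 0.98, -0.16 to 0.23) and 1.02 ± 0.29 in CD11b-negative cells (adjusted p = 0.21, 0.38 to 1.65). In the last of these the Ptprc levels in the CCR2+/- pair were 1.12 and 0.673 and those of the CCR2-/- pair 1.55 and 2.06, without overlap. The make-up of this gate differed between samples. It held 8, 4, 4 and 11 cells of the shallow cluster 2 in the same order. The second CCR2-/- sample had 7 T-like cells in it, the first sample of each genotype 1. In unraised cells of the first CCR2+/- sample the Ptprc level was 0. The part of make-up and correction in this difference was not tested. Itgam differed by 0.12 ± 0.10 in CD11b-positive cells (adjusted p = 0.78) and 0.14 ± 0.10 in microglia-like cells (adjusted p = 0.76). Kit in CD45High cells was at 0.0656 and 0.0780 against 0.198 and 0.289, a difference of 1.62 ± 0.43 (adjusted p = 0.999). The test of whether a gate contrast itself differed with genotype gave 0.29 ± 0.34 for Ptprc across the CD45 gate (limma adjusted p = 0.95) and -0.40 ± 0.76 for Itgam across the CD11b gate (adjusted p = 0.95).

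Barcodes found in both blood tables, which were left out above, had been gated once in each. There were 845 of them. For CD3, 424 had a value in both tables, of which 89 were positive in both, 35 only in the naive table, none only in the metastasis table and 300 in neither, so 91.7% had the same value. For NK1.1, 300 had a value in both, 25 positive in both, 4 only in the naive and 28 only in the metastasis table, and 89.3% had the same value. For CD117 all 845 had one, 26 positive in both and 26 only in the naive table, so every barcode positive in the metastasis table was also positive in the naive table.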

How the data were processed

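Single cells of the pooled, hashed library were read with Cell Ranger 3.1 on mm10, per the submitters' processing notes. The authors deposited, per the file headers and values, the natural log of 1 plus a depth-corrected count for each gene, corrected in each table separately. Undoing the log gave whole numbers to within 2.2e-11. The gate, hashtag and cluster labels and per-cell totals are the authors' deposited labels; the rules behind the gates are not given in the sources used here. Cells with a barcode in several tables or under 50% own hashing counts were left out. Corrected counts were summed per hashed sample and gate value with at least 20 cells (10 in contrasts added after seeing the data and within classes), and log2 of the sum plus 1 was tested with limma 3.58.1 (R 4.3.3, trend, hashed sample as a block), over genes with at least 20 counts, with Benjamini-Hochberg adjustment and a threshold of 0.05. Cells were clustered without the 5 genes (scanpy 1.11.5, leidenalg 0.10.2; 2000 variable genes, 30 components, 20 neighbours, resolution 1). No doublet caller was run; leaving out cells of high depth (over 2.5 times their sample's median UMI total) is an alternative. Nothing shows that the hashed samples were separate animals, so p-values speak for these samples only. The limma fit moderates the variance of each gene with that of all genes. In blood contrasts of 2 samples, SE and p-value rest mostly on that shared variance and not on the spread between the samples. On simulated data the brain CD45 fit (13537 genes) recovered 53.5% of 2-fold and 82.7% of 4-fold changes, and the naive CD3 fit (10617 genes) 42.9% and 78.1%. These fits also called 29 and 7 genes that had been left unchanged, so part of the calls at that threshold were false. The genes, lists and tests were chosen with earlier results of these data known. The genes named are the 5 members, up to 4 per partner list and the 3 genes most like each member.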

Additional observations from a re-analysis of the deposited data

How the results depend on the processing

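The contrast of the gated RNA kept its direction under every alternative that gave a fitted value. Kit in unraised cells of metastasis blood gave none. Its level there was 0 inside the CD117 gate of Het and Hom, against 0.00255 and 0.00227 outside. Leaving out 1 sample, the log2 difference of the gated RNA ran from 3.41 to 6.26 for naive CD3, 5.11 to 7.07 for metastasis CD3, 4.61 to 11.5 for naive NK1.1 and 4.72 to 6.79 for metastasis NK1.1. The lower end of each CD3 range and of naive NK1.1 is the value without Het, and that of metastasis NK1.1 the value without Hom; with 1 sample left these are values with no test. The 11.5 is set by the pseudocount, since the Het gate-negative cells held 0 counts. Some alternatives gave no value because the RNA had fewer counts than the filter asks: Kit in both CD117 gates when thinned, in unraised cells, over genes with at least 100 counts and without the Het sample (in metastasis also without Hom), and Cd3e within naive cluster 4 and metastasis cluster 9 when thinned, over genes with at least 100 counts and without the Het sample (in naive also without Hom). Itgam within endothelial-like cells was under the minimum of 20 counts and was not tested. Fewer than 5 cells of a gate value were left in unraised cells of both of these clusters and in microglia-like cells without high depth. All deposited cells were not run within classes, which were made on the kept cells, and the share alternatives were run by gate value and not by class. The fits have the hashed sample as a block; with no replicate block naive CD3 stayed at 4.83 with an adjusted p of 0.15, and the replicate block changed no other call of a gated RNA. With the mean of the log values metastasis NK1.1 was 1.08 (adjusted p = 0.057), naive CD117 0.0835 (0.47) and metastasis CD117 0.120 (0.20). With a scaled pseudocount naive CD117 was 3.81 (0.37) and metastasis CD117 5.21 (0.23), and with a pseudocount of 0.5 naive CD117 was 4.37 (0.24). Each class was also replaced by the authors' cluster with the largest number of its cells. The Cd3e difference then passed the threshold in the clusters that replaced naive cluster 4 (3.16, limma adjusted p = 0.010) and metastasis cluster 9 (4.15, 0.022). Those are other sets of cells, with 3304 and 3626 genes tested against 1822 and 1930. Within metastasis cluster 9 itself the difference was 1.60 without the Hom sample.

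Counts of called genes moved by over 1.5 times in 38 cases and stayed within that in 66. Thinned to 1000 counts they were 2668 (brain CD45), 4174 (brain CD11b), 1435 (naive CD3), 3441 (metastasis CD3), 3602 (naive CD117), 1295 (naive NK1.1), 128 (metastasis NK1.1) and 5784 (metastasis CD117). With no filter they were 11230 (brain CD11b), 9840 (metastasis CD3), 6473 (naive CD117), 6619 (naive NK1.1), 868 (metastasis NK1.1) and 9008 (metastasis CD117), and over genes with at least 100 counts 1501 (naive CD3), 145 (naive CD117), 1646 (naive NK1.1), 614 (metastasis NK1.1) and 854 (metastasis CD117). The mean of log values gave 3629 (naive CD3), 3 (naive CD117), 90 (metastasis NK1.1) and 0 (metastasis CD117, where limma gave 2242 genes an unadjusted p under 0.05). Unraised cells gave 638 (naive CD3), 1138 (naive NK1.1) and 151 (metastasis NK1.1). A pseudocount of 0.5 gave 5 (naive CD117), 1825 (naive NK1.1) and 911 (metastasis CD117), and one of 5 gave 8743, 517, 137 and 10066 (naive CD117, naive NK1.1, metastasis NK1.1, metastasis CD117). A scaled pseudocount gave 18 (metastasis NK1.1). Without high-depth cells there were 2326 (naive CD117) and 4384 (metastasis NK1.1), and with no replicate block 0 (naive CD3, 2937 at an unadjusted p under 0.05) and 257 (metastasis NK1.1).

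Shares of gate-positive cells with the RNA fell when cells were thinned, to 55.4% (CD45), 35.0% (CD11b), 31.1% and 34.9% (CD3, naive and metastasis), 38.2% and 7.97% (NK1.1) and 1.43% (naive CD117). Requiring 2 counts gave 90.2% (CD45), 57.0% (CD11b), 56.7% and 65.1% (CD3). Over all deposited cells they were 61.8% and 71.4% (CD3) and 58.7% (naive NK1.1). In unraised cells they were 88.3% (CD11b), 79.1% and 88.7% (CD3), 91.1% and 9.40% (NK1.1) and 0% (metastasis CD117), and without high-depth cells 92.8% (CD11b) and 31.4% (metastasis NK1.1).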
